A study of Mus musculus with 8 samples.

Results

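The genes described here are 9 receptors and adhesion molecules that hold blood stem cells in the bone marrow or bring them back to it: Cxcr4, Selplg, Itga4, Itga6, Itgb1, Itgal, Itgb2, Cd44 and Vcam1. They were chosen by symbol for that role, with earlier results of these data known. Each of the 9 symbols matched 1 row among 37991 gene identifiers in the deposited count table. RNA was sequenced from Flt3- LSK cells (lineage-negative, Sca-1-positive, Kit-positive cells, a marrow population enriched in stem cells and early progenitors of blood) of C57BL/6J mice, with 24000 cells sorted per sample. The WT group is labelled wild type, and per the series' design text its cells carry Runx1f/f, a floxed form of the gene. The Mut group is labelled Runx1 deficient. The age of the mice, the Cre line and the deleted part of the gene are not stated in the labels, and no treatment is named. Each group had 2 samples, and libraries of polyA-selected RNA (mRNA libraries) and of total RNA were made from RNA to which synthetic ERCC transcripts had been added as a spike-in. Whether both samples of a label are separate animals is not stated, and p-values therefore reflect the scatter of these samples alone, possibly a technical one.

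Stem cells are kept in the marrow by the chemokine receptor Cxcr4, whose ligand Cxcl12 is made by stromal cells. Cells returning from the blood first roll on endothelial selectins through glycosylated ligands such as Selplg and Cd44. They then stop when integrins, pairs of an alpha and a beta chain, are switched to their binding form and hold on to ligands such as Vcam1, intercellular adhesion molecules, fibronectin and laminin. The comparison asks how RNA of these genes differs between WT cells and cells labelled as lacking Runx1, a transcription factor of blood cell development.

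Gene counts were 35096252 to 37924699 in the mRNA libraries and 967694 to 1218437 in the total RNA libraries, where ribosomal RNA took 93.3 to 94.5% of all counts. Kit stood at 884 to 1100 CPM (gene counts scaled to a common library size with TMM factors, the unit of all levels here) and Ly6a, which encodes Sca-1, at 23.7 to 38.6 CPM in the mRNA libraries. Flt3, against which the cells were sorted, was nevertheless measured, at 117 and 155 CPM in the WT mRNA libraries, against 57.3 and 87.6 CPM under the Mut label. Of 9 genes listed for the stem and progenitor gate, edgeR called 1 in mRNA libraries, Cd48, 3.99-fold higher under the Mut label (adjusted p = 0.00451). In total RNA libraries it called Cd48 5.88-fold higher (adjusted p = 3.42e-06) and Hlf lower (log2 fold change -0.78, adjusted p = 0.0105). Over all genes, 3.64% and 4.22% were called. Whether the make-up of the sorted cells differed between labels was not tested. Runx1 itself was 200 and 208 CPM in the WT mRNA libraries, against 749 and 941 CPM under the Mut label, a log2 fold change of 2.05 (edgeR adjusted p = 0.00753). By total RNA, it was 233 and 239 CPM against 824 and 906 CPM. The targeted gene thus went against the label, although reads summed over all its exons do not test whether 1 part was deleted. Every direction below therefore rests on the labels, and the groups are called WT and Mut-labelled.

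Of the 9 genes, 3 rose in the Mut-labelled mRNA libraries and 0 fell: Itgb2 3.32-fold, Itgal 2.03-fold and Itga6 1.82-fold. Itgal and Itgb2 encode the alpha and the beta chain of 1 leukocyte integrin. The same 3 genes rose in the total RNA libraries, and the other 6 passed the test in neither kind of library. Calls were made at an adjusted p under 0.05 by edgeR's quasi-likelihood test with Benjamini-Hochberg adjustment over all genes tested. Of all genes, 3.64% were called in the mRNA libraries in either direction and 1.75% as higher, 1.89% as lower. For total RNA libraries the shares were 4.22%, 2.54% as higher and 1.68% as lower. The median log2 fold change of the 9 genes was 0.25 in mRNA and 0.41 in total RNA libraries, against -0.01 and -0.00 for all genes tested. Since the 9 were chosen with earlier results of these data known, the shares and medians describe them and are not a test of the set. All 9 genes passed the filter on low counts in both kinds of library.

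**Figure D1:**
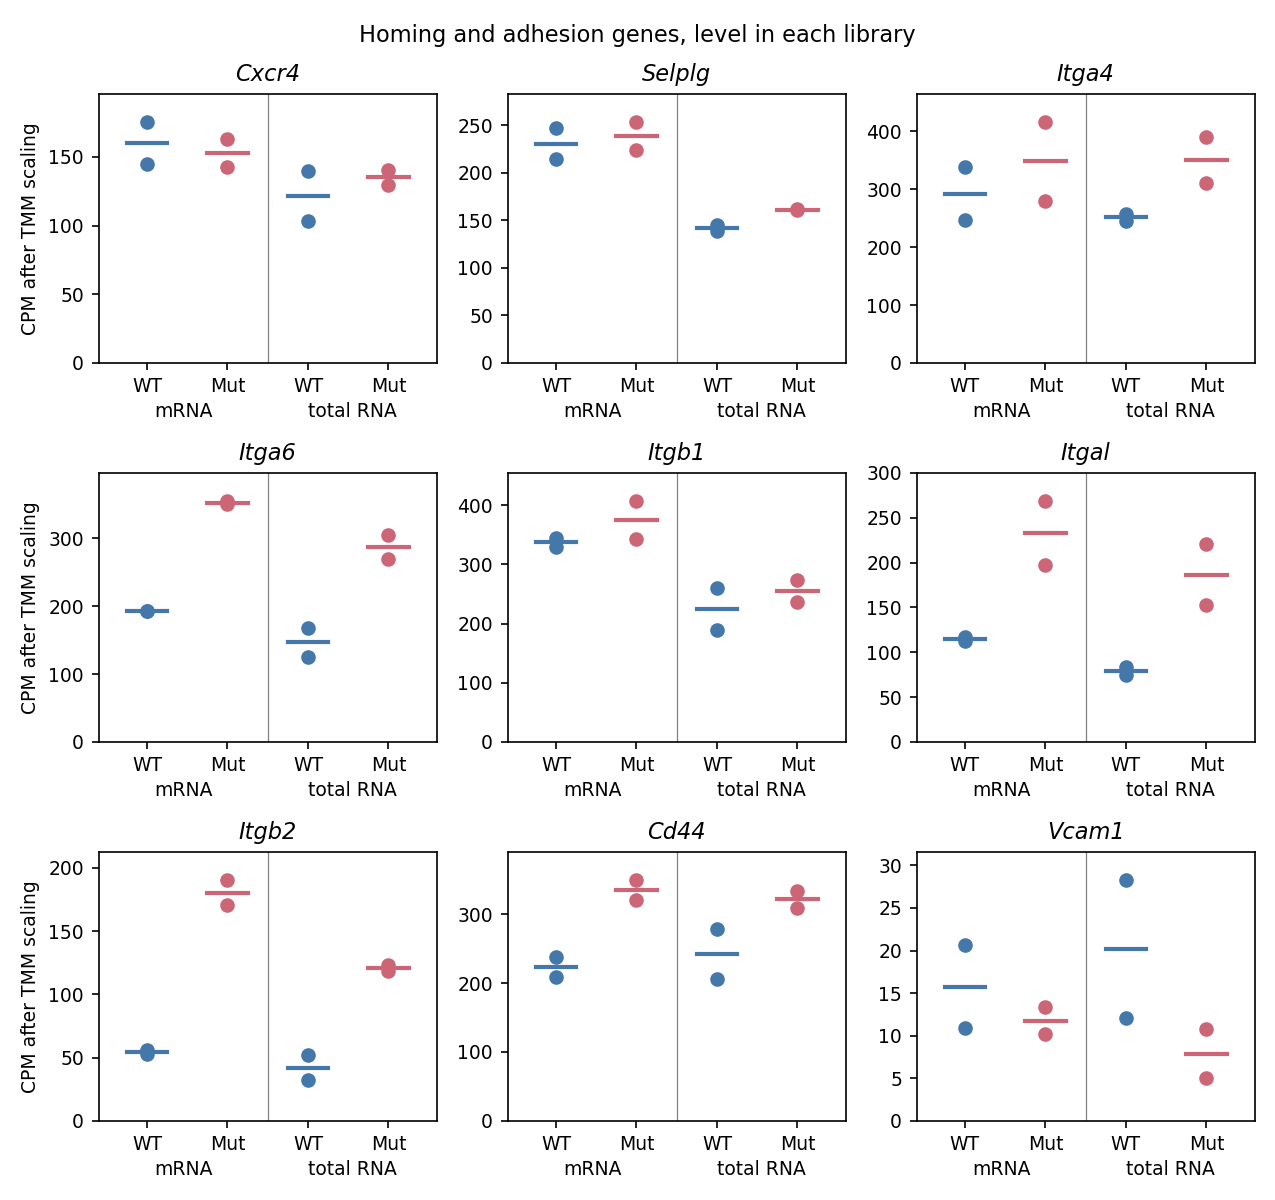
Level of each of the 9 genes in CPM after TMM scaling, with 1 point per library and a bar at the mean of the 2 libraries of a group, mRNA libraries on the left and total RNA libraries on the right of each panel (Mut stands for Mut-labelled). Itgb2, Itgal, Itga6 and Cd44 lie higher in both Mut-labelled libraries than in both WT libraries in each kind, while Cxcr4 overlaps in both kinds.

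RefSeq promoters (GRCm38.p6, 250 bases before to 50 after the gene start) were at hand for 4 of the 9 genes, Cxcr4, Itga4, Itgb1 and Cd44. They were searched for the letters TGTGGT and TGCGGT, common forms of the RUNX motif, on both strands. Of the 4, only that of Itga4 held a match, ACCACA, the reverse complement of TGTGGT, 60 bases before the gene start. Among all 32851 RefSeq promoters given, 16.8% held TGTGGT and 22.4% either form on 1 of the strands. Selplg, Itga6, Itgal, Itgb2 and Vcam1 were not in the table. The Itga4 promoter is shown for its match, in capitals, and that of Cd44 as one with none, both 5′ to 3′ on their gene's strand. A match is a description of the letters, and no match says only that these letters are not in this window.
Itga4, chr2:79255176-79255475, plus strand: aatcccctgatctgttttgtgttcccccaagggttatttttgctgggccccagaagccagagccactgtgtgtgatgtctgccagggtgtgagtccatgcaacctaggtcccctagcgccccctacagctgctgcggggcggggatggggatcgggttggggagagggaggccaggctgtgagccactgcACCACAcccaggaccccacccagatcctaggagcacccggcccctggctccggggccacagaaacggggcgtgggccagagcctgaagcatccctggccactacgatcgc
Cd44, chr2:102901616-102901915, minus strand: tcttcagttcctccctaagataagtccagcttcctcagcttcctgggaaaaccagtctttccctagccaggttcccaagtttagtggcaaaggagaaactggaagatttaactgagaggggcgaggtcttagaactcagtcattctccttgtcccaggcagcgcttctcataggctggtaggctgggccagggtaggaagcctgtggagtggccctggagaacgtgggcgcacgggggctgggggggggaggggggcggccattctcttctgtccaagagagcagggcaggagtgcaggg

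The chemokine receptor Cxcr4 (ENSMUSG00000045382) was 145 and 175 CPM in the WT mRNA libraries, against 163 and 143 CPM under the Mut label. The groups overlapped, with the highest and the second lowest library both WT. The means were 160.0 ± 21.5 and 153 ± 14.6 CPM (SD, n = 2 each), which gives a log2 fold change of -0.06 with a 95% interval from -0.44 to 0.32 (edgeR adjusted p = 0.922). From total RNA libraries, Cxcr4 was 103 and 140 CPM (WT) against 129 and 141 CPM (Mut-labelled), a log2 fold change of 0.16 (interval -0.24 to 0.55, edgeR adjusted p = 0.794). A difference was not detectable in either kind, and the intervals leave room for changes up to those bounds.

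Selplg (ENSMUSG00000048163) encodes the mucin-like ligand through which white cells roll on P-selectin. It was 247 and 214 CPM in the WT mRNA libraries, against 253 and 224 CPM under the Mut label, again overlapping, with a log2 fold change of 0.05 (interval -0.31 to 0.41, edgeR adjusted p = 0.938). With total RNA, it was 145 and 139 CPM against 162 and 161 CPM. Both Mut-labelled libraries were the higher ones there, but the log2 fold change of 0.19 (interval -0.17 to 0.54) did not pass (edgeR adjusted p = 0.696).

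Among the integrin alpha chains, Itga4 (ENSMUSG00000027009) encodes the chain that with Itgb1 binds Vcam1 and fibronectin. It was 247 and 338 CPM in the WT mRNA libraries, against 280.5 and 415 CPM under the Mut label. In both groups replicate 2 was the higher library, and the groups overlapped. The log2 fold change of Itga4 was 0.25 (interval -0.36 to 0.86, edgeR adjusted p = 0.766). Among total RNA libraries both Mut-labelled values, 311 and 391 CPM, lay above both WT values, 258 and 245 CPM, with a log2 fold change of 0.48 (interval 0.14 to 0.82). That difference did not pass after adjustment (edgeR adjusted p = 0.12). A B and plasma cell list summed by mRNA to 1131 CPM in WT replicate 1 and 9608 CPM in WT replicate 2. Under the Mut label its sums were 431 and 2101 CPM, so that replicate 2 was again the higher. Its gene Ighm ran otherwise, at 296 and 182 CPM against 33.0 and 17.9 CPM. By total RNA the sum was 589 and 5798 CPM against 309 and 1405 CPM. There Itga4 was higher in WT replicate 1. The part of that list in the level of Itga4 was not tested.

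Itga6 (ENSMUSG00000027111) encodes the alpha chain of laminin-binding integrins. In the mRNA libraries it was 193 CPM in both WT libraries and 351 and 355 CPM in the Mut-labelled libraries. The 2 libraries of a group thus lay close together and the groups far apart. The means were 193 ± 0.046 and 353 ± 2.57 CPM (SD, n = 2 each), which gives a log2 fold change of 0.87 with an SE of 0.13 (edgeR adjusted p = 0.0276). By total RNA, Itga6 was 126 and 169 CPM (WT) against 305 and 269 CPM (Mut-labelled), a log2 fold change of 0.96 with an SE of 0.18 (edgeR adjusted p = 0.00194). Megakaryocyte genes were also higher in Mut-labelled libraries. Of 16 tested members of a megakaryocyte list, 6 rose and 1 fell in the mRNA libraries, against 1.75% and 1.89% of all genes tested. Their summed level was 1341 to 1438 CPM in WT and 2703 to 2960 CPM in Mut-labelled libraries. Of the 16 log2 fold changes 13 were positive, with a median of 1.18. Clec1b (22.4-fold), Treml1 (13.4-fold), Gp5 (4.52-fold), Itga2b, Selp and Itgb3 rose, Vwf fell (log2 fold change -1.31), and the 9 not called included Gp9 (0.15) and Pf4 (-1.20). Their part in the rise of Itga6 was not tested. In bulk RNA, more cells of a type and more RNA per cell cannot be told apart, which holds for every gene here.

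Itgal (ENSMUSG00000030830) encodes the alpha chain of the leukocyte integrin that binds intercellular adhesion molecules. It was 113 and 117 CPM in the WT mRNA libraries, against 197 and 268 CPM under the Mut label, so that the groups did not overlap and the Mut-labelled libraries were the more spread. The log2 fold change was 1.02 with an SE of 0.18 (edgeR adjusted p = 0.044). From total RNA libraries, Itgal was 83.7 and 74.3 CPM (WT) against 153 and 220.4 CPM (Mut-labelled), a log2 fold change of 1.25 with an SE of 0.20 (edgeR adjusted p = 6.57e-04). In both kinds Mut-labelled replicate 2 held the highest value.

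Of the beta chains, Itgb1 (ENSMUSG00000025809), the shared partner of Itga4 and Itga6, was 345 and 330.2 CPM in the WT mRNA libraries, against 407 and 343 CPM under the Mut label. The lower Mut-labelled library lay between the WT libraries. The log2 fold change was 0.15 (interval -0.22 to 0.52, edgeR adjusted p = 0.766), and in the total RNA libraries, at 261 and 189.7 against 274 and 237 CPM, it was 0.18 (interval -0.19 to 0.55, edgeR adjusted p = 0.725). Neither kind of library called a difference for Itgb1.

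Itgb2 (ENSMUSG00000000290), the beta chain of leukocyte integrins and the partner of Itgal, had the largest fold change of the 9 genes in both kinds with all libraries in the fit. It was 56.0 and 52.7 CPM in the WT mRNA libraries, against 190.2 and 171 CPM under the Mut label. The means were 54.3 ± 2.30 and 181 ± 13.7 CPM (SD, n = 2 each), which gives a log2 fold change of 1.73 with an SE of 0.13 (edgeR adjusted p = 0.00579). As total RNA, with 33 and 52 counts in WT and 110 and 147 counts in Mut-labelled libraries, Itgb2 was 32.1 and 52.2 CPM against 119 and 123 CPM. There the log2 fold change was 1.52 with an SE of 0.23 (edgeR adjusted p = 4.17e-04).

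Itgb2 and Itgal are also made by mature leukocytes, and mature neutrophil genes moved with the label. All 11 tested genes of a neutrophil list were higher in Mut-labelled mRNA libraries, and 2 of them, Retnlg and Cxcr2, rose by edgeR. In those libraries 10 of the 11 had an unadjusted p under 0.05, against 15.7% of all genes tested. DESeq2 called 10 higher, against 751 called higher among all 17128 genes. Of the 12 listed, 5 were tested in total RNA libraries. All 5 rose by edgeR, and DESeq2 called 2 of them. These 5 had 2 to 7 counts in each WT library and 12 to 54 counts in each Mut-labelled one. They thus passed the filter on low counts through the Mut-labelled libraries, so that their direction there was largely set beforehand. In the mRNA libraries the neutrophil list's sum was 41.2 and 46.9 CPM (WT) against 508 and 158 CPM (Mut-labelled replicates 1 and 2). The defining marker Ly6g stood at 0.857 CPM or less in every mRNA library. The sum was higher in both Mut-labelled libraries than in both WT libraries, as Itgb2 and Itgal were. Between Mut-labelled replicates 1 and 2 the order differed. The sum and Itgb2 (190.2 and 171 CPM) were higher in replicate 1, and Itgal (197 and 268 CPM) was higher in replicate 2. The part of neutrophil RNA in the rise of Itgb2 and Itgal was not tested. Without Mut-labelled replicate 1, the log2 fold change of Itgb2 was 1.65 and that of Itgal 1.22. The Mut-labelled library left in that fit still had a neutrophil sum above both WT libraries, so that the fit does not test that part. The other alpha partners of Itgb2 were named after their values were seen. Itgam, of neutrophils and macrophages, was 29.9 and 32.5 CPM in the WT mRNA libraries, against 46.4 and 62.5 CPM under the Mut label (log2 fold change 0.80, edgeR adjusted p = 0.099). Itgax was 0.915 to 1.13 CPM and Itgad 0.60 to 2.16 CPM across the mRNA libraries. Of 15 tested macrophage and dendritic cell genes, 0 rose and 1 fell by edgeR in the mRNA libraries. There 10 had an unadjusted p under 0.05, against 15.7% of all genes tested. DESeq2 called 1 of the 15 higher and 4 lower, against 751 and 864 of all 17128 genes. Of 7 tested T cell genes 1 rose (Lat) and 1 fell (Lck), with Cd3e at 0.68 to 1.71 CPM.

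**Figure D2:**
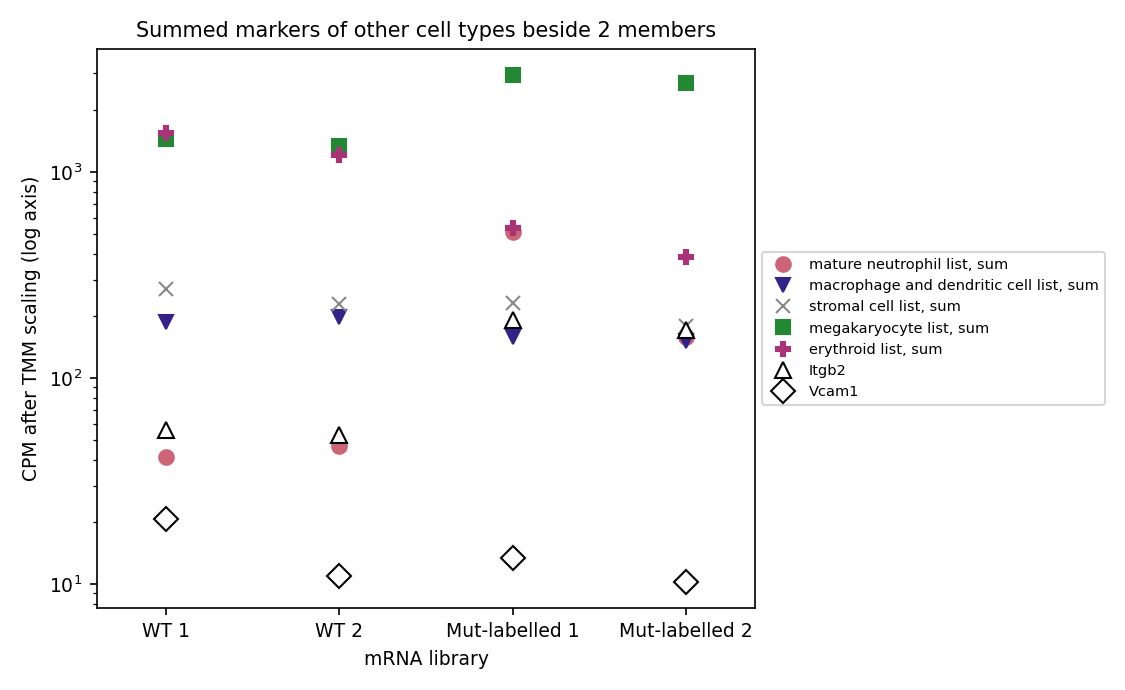
Summed level of the genes of 5 marker lists, with Itgb2 and Vcam1, in each mRNA library, in CPM after TMM scaling on a log axis. The neutrophil sum is 41.2, 46.9, 508 and 158 CPM from left to right while Itgb2 is 56.0, 52.7, 190.2 and 171 CPM, and Vcam1 is highest in WT replicate 1.

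Cd44 (ENSMUSG00000005087), the hyaluronan receptor that also carries selectin-binding sugars, was 238 and 209 CPM in the WT mRNA libraries, against 349 and 321 CPM under the Mut label. Both Mut-labelled libraries lay above both WT libraries, as 21.4% of all genes tested did. The log2 fold change was 0.58 (SE 0.14), which did not pass in edgeR (adjusted p = 0.104) but passed in DESeq2 (adjusted p = 0.00408). With total RNA, Cd44 was 278 and 206 CPM (WT) against 309 and 334 CPM (Mut-labelled), a log2 fold change of 0.41 with an SE of 0.17 (edgeR adjusted p = 0.243, DESeq2 adjusted p = 0.872). The direction was the same in both kinds, and the call in mRNA libraries depended on the test.

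Vcam1 (ENSMUSG00000027962), the ligand of the integrin made of Itga4 and Itgb1, is best known on stromal cells, endothelium and marrow macrophages. It was 20.6 and 10.9 CPM in the WT mRNA libraries, against 13.4 and 10.2 CPM under the Mut label, overlapping, with a log2 fold change of -0.42 (interval -1.31 to 0.47, edgeR adjusted p = 0.71). As total RNA it rested on 29 and 12 counts in WT and 10 and 6 counts in Mut-labelled libraries, with a log2 fold change of -1.39 (interval -2.51 to -0.27, edgeR adjusted p = 0.197). WT replicate 1 held the highest level in both kinds. The stromal chemokine gene Cxcl12 was also highest there, at 28.9 CPM against 9.89 in WT replicate 2 and 16.7 and 2.52 in Mut-labelled mRNA libraries. The macrophage gene C1qa was 7.01 and 3.4 against 1.94 and 1.1 CPM. Other genes of the same lists ran otherwise. The stromal gene Pdgfrb was 59.6 and 72.6 against 56.6 and 125 CPM, and the macrophage gene Csf1r 17.0 and 13.5 against 49.5 and 30.7 CPM. In the mRNA libraries 4 stromal log2 fold changes were positive and 10 negative. For macrophage and dendritic cell genes, 2 were positive and 13 negative. Of the whole lists, 1 of 14 tested stromal genes and 1 of 15 macrophage and dendritic cell genes fell in the mRNA libraries, their sums being 228 to 270 and 186 to 198 CPM in WT and 178 to 230 and 151 to 158 CPM in Mut-labelled libraries. Their part in the level of Vcam1 was not tested.

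Counting direction alone, 4 of the 9 genes had both Mut-labelled mRNA libraries above both WT libraries, 5 overlapped and 0 lay below. Of all genes tested, 21.4% lay above and 23.1% below. By total RNA, 6 lay above, 2 overlapped and 1, Vcam1, lay below, next to 22.5% above and 21.4% below for all genes. The plot of fold changes shows the intervals.

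**Figure D3:**
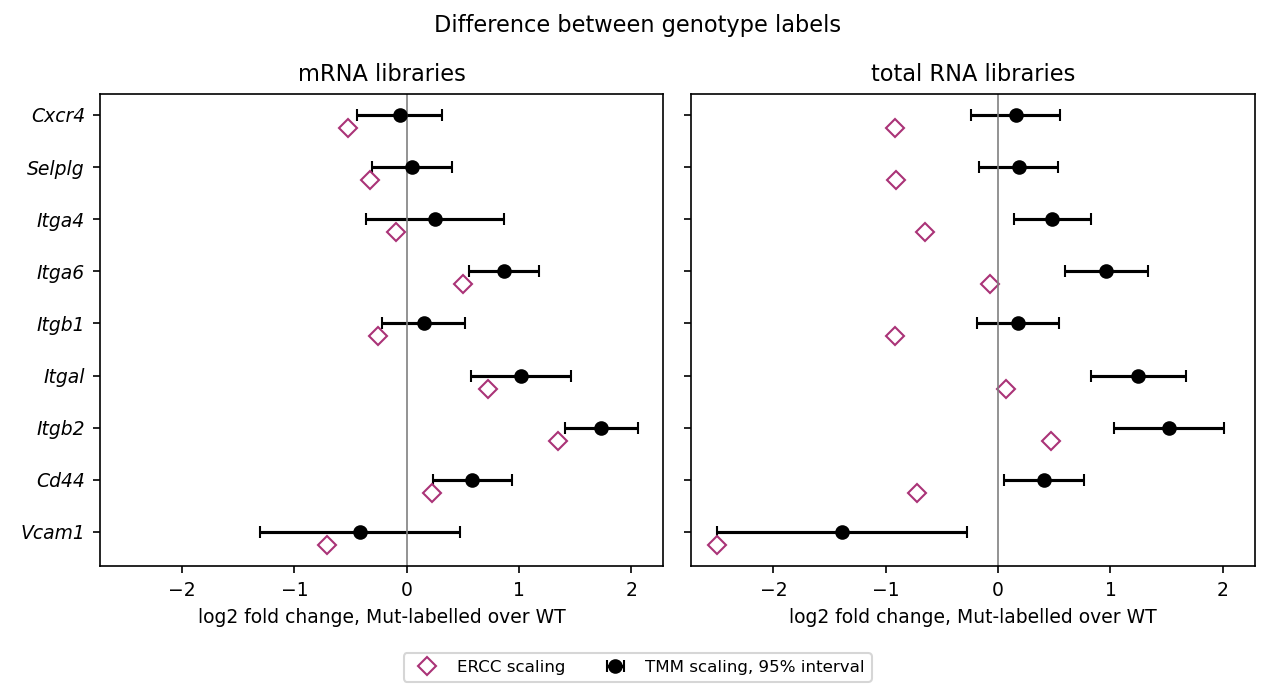
Log2 fold change of Mut-labelled over WT for the 9 genes in mRNA libraries (left) and total RNA libraries (right). Filled points with bars are values under TMM scaling with their 95% intervals, and open diamonds are values under scaling by ERCC counts; under ERCC scaling all 9 values shift to the left, and in total RNA libraries Itga6 falls from 0.96 to -0.07.

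TMM scaling sets each value against the bulk of genes in a library, and that choice fixed the zero. Scaling by ERCC counts moved the median of all genes to -0.38 in the mRNA libraries and -1.10 in the total RNA libraries. The ERCC counts themselves were 243670 and 118723 in WT and 312754 and 142196 in Mut-labelled mRNA libraries, so that they differed more between replicates than between groups. From total RNA libraries, they were 4293 and 5649 in WT and 7471 and 16620 in Mut-labelled libraries, higher in both of the latter. Under ERCC scaling Itgb2, Itgal and Itga6 had log2 fold changes of 1.34, 0.72 and 0.50 in mRNA (edgeR adjusted p = 0.999 each), but 0.47, 0.07 and -0.07 in total RNA (edgeR adjusted p = 0.469, 0.907 and 0.913), so that Itga6 changed its sign in the latter. Vcam1 was called lower in total RNA libraries under that scaling (log2 fold change -2.50, edgeR adjusted p = 0.0259).

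**Figure D4:**
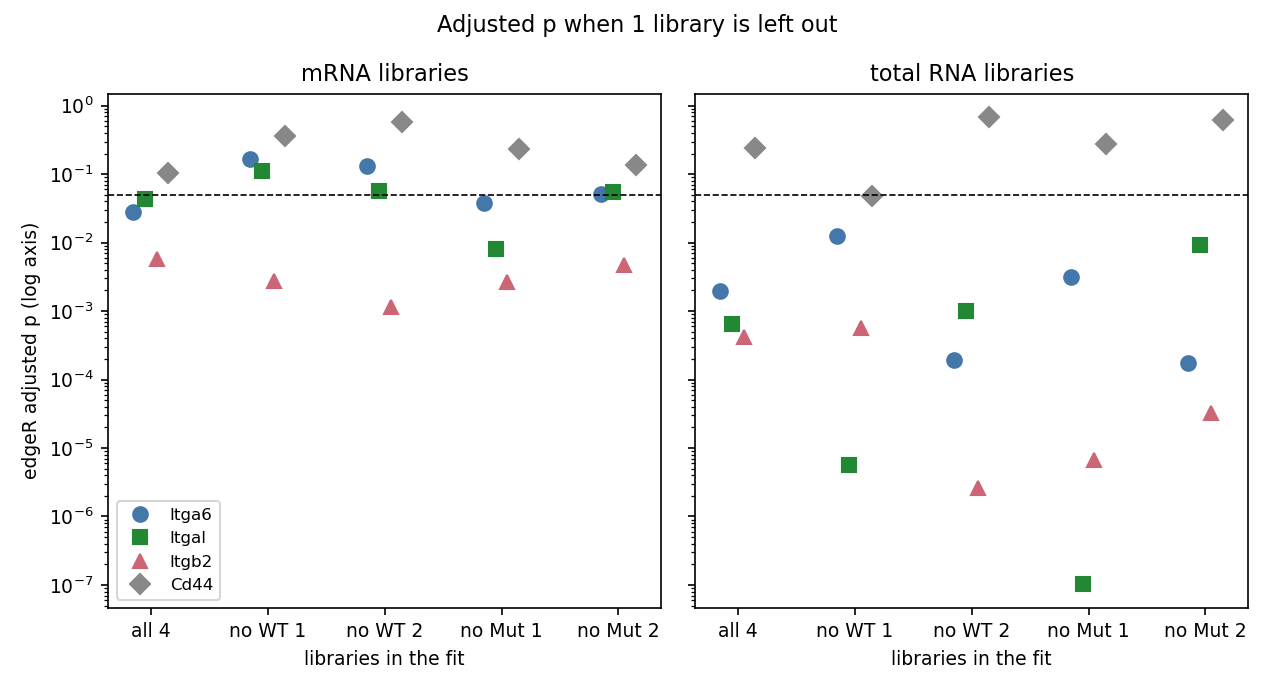
Adjusted p of edgeR's quasi-likelihood test on a log axis for Itga6, Itgal, Itgb2 and Cd44, with all 4 libraries of a kind and with each library left out, and a dashed line at 0.05. Itgb2 stays under the line in every fit of both kinds, while Itga6 and Itgal cross it in mRNA libraries in 3 of 4 fits with a library left out.

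With 1 mRNA library left out at a time, Itgb2 was called in each of the 4 fits (edgeR adjusted p = 0.00115 to 0.00478). Itga6 lost its call without either WT replicate or without Mut-labelled replicate 2 (edgeR adjusted p = 0.166, 0.131 and 0.0505), with log2 fold changes of 0.87, 0.88 and 0.87. Itgal lost its call without the same libraries (edgeR adjusted p = 0.11, 0.0574 and 0.0541), with 0.99, 1.05 and 0.78. With total RNA, all 3 genes were called in each such fit. There Cd44 was called without WT replicate 1 (log2 fold change 0.65, edgeR adjusted p = 0.0476) and Vcam1 without WT replicate 2 (-1.86, edgeR adjusted p = 0.0349).

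Whether the difference between labels depended on how the libraries were made was tested over all 8. No gene of 17416 was called by edgeR (0%), 687 (3.94%) had an unadjusted p under 0.05, and DESeq2 called 12. Of the 9 genes, 0 were called by edgeR and 0 had an unadjusted p under 0.05. Their differences of log2 fold changes, total RNA minus mRNA, ran from -0.93 for Vcam1 (interval -2.53 to 0.67) to 0.28 for Itga4 (interval -0.41 to 0.96). For Itgb2, Itgal and Itga6 they were -0.16 (interval -0.77 to 0.44), 0.27 (interval -0.37 to 0.92) and 0.14 (interval -0.36 to 0.64). A dependence on the kind of library was thus not detectable for these genes at this depth. With the sorted sample as a block, 111 genes and 0 of the 9 were called. Among the adhesion genes described next, 4 were called there, Itga3 (-1.08), Itgb4 (-0.90), Spp1 (-1.29) and Cdh1 (-0.94), each relatively lower in Mut-labelled total RNA libraries. Of these, Itgb4 is the other beta partner of Itga6. It was 35.4 and 34.7 CPM in the WT mRNA libraries, against 45.8 and 47.6 CPM under the Mut label. As total RNA it was 128 and 102 CPM (WT) against 85.1 and 74.6 CPM, and it passed the test in neither kind (edgeR adjusted p = 0.227 and 0.193).

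Other genes of homing and adhesion were read from 8 lists that hold 184 genes, the 9 included. These lists too were chosen with earlier results of these data known. Of the 171 tested in mRNA libraries 17 rose and 2 fell, with a median log2 fold change of 0.18. Over all genes tested there, 1.75% rose and 1.89% fell, with a median of -0.01. Of the 140 tested in total RNA libraries 18 rose and 4 fell, with a median of 0.15. Over all genes tested there, 2.54% rose and 1.68% fell, with a median of -0.00. Leaving out the 9, 16 were called in mRNA libraries and 19 in total RNA libraries. Of these, 12 were called in both, which is 12 of 16 and 12 of 19, and both kinds are read as coming from the same sorted samples. Without a block, edgeR called 0 of the 172 tested as depending on the kind of library (9 at an unadjusted p under 0.05). With the sorted sample as a block it called the 4 genes named above. A call in 1 kind alone is therefore not read as a difference between kinds. Under ERCC scaling 0 were called in mRNA and 5 in total RNA libraries. DESeq2 made no call in total RNA libraries for Arhgap25, Cd24a, Col4a1, Lyn, Mmp9, Rgs1, S1pr1 and S1pr3 (adjusted p = 0.0537 to 0.472). By role, 2 of 27 genes of Cxcr4 and Gi protein signalling, 3 of 21 of selectin ligands and their glycosylation, 4 of 16 integrin alpha chains, 3 of 7 integrin beta chains and 0 of 31 of integrin activation and linkage to actin rose in mRNA libraries by edgeR, which called 0 lower in these lists, while DESeq2 called 2 lower among the selectin ligands. The 31 activation genes had 10 with an unadjusted p under 0.05 (against 15.7% of all genes tested) and 24 positive values, and DESeq2 called 7 of them higher (against 751 of all 17128 genes). The most abundant of them, Tln1, which encodes talin, the protein that switches integrins to their binding form, gave a log2 fold change of 0.08 (edgeR adjusted p = 0.915).

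**Figure D5:**
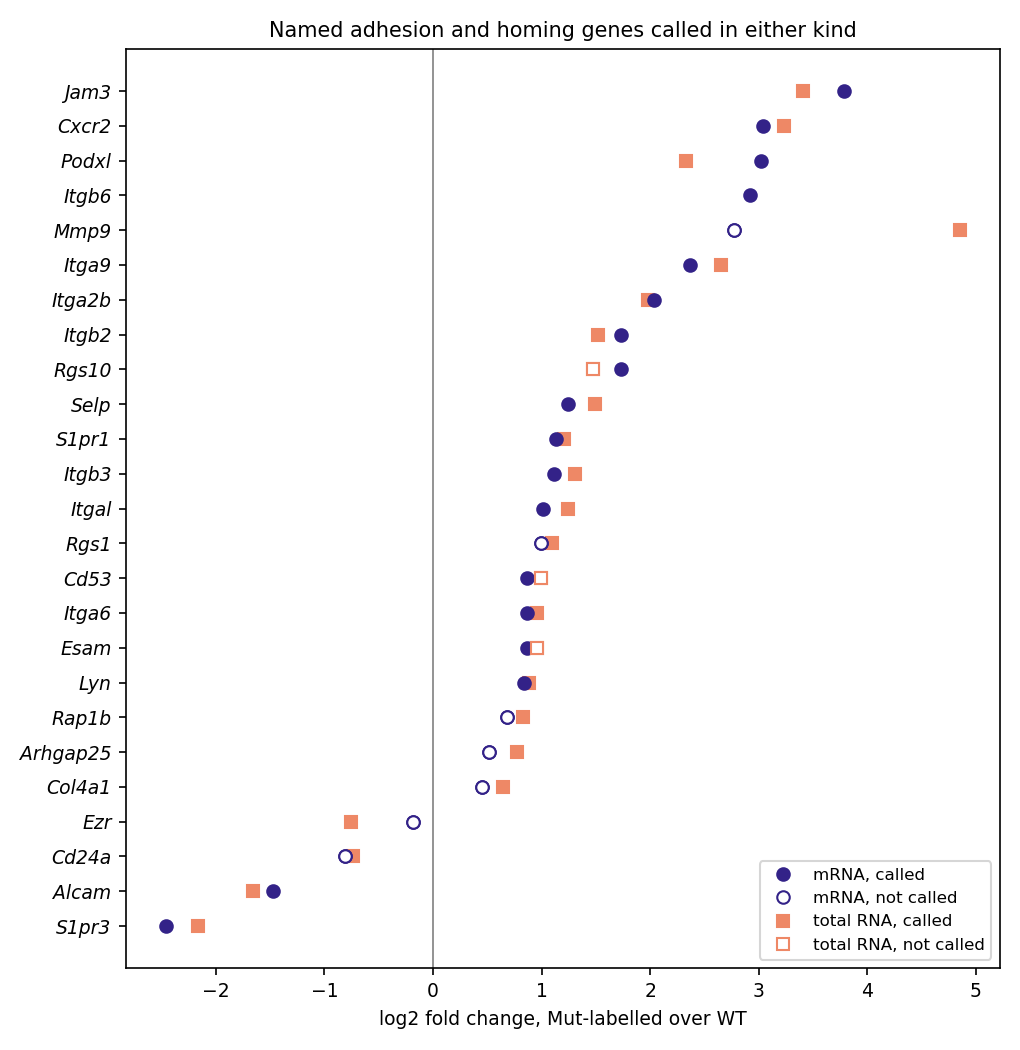
Log2 fold change of Mut-labelled over WT for the named genes of the 8 lists called in either kind of library, circles for mRNA and squares for total RNA libraries, filled where called. Jam3, Cxcr2 and Podxl are the farthest to the right in mRNA libraries, S1pr3 and Alcam the farthest to the left, and Itgb6 was not tested in total RNA libraries.

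Among chemokine and lipid receptors, 2 of 17 tested rose and 1 fell in mRNA libraries, against 1.75% and 1.89% of all genes tested. Cxcr2, the neutrophil chemokine receptor, was 4.14 and 5.36 CPM in the WT mRNA libraries, against 39.6 and 38.5 CPM under the Mut label, an 8.22-fold rise. It belongs to the neutrophil list too, and its part in that list's rise was not tested. S1pr1, the receptor through which blood cells follow sphingosine 1-phosphate out of tissues, rose 2.19-fold (edgeR adjusted p = 0.0425), and S1pr3, a related receptor, fell from 19.4 and 15.7 to 2.74 and 3.64 CPM, 5.50-fold (edgeR adjusted p = 0.0152). S1pr1 lost its call in mRNA libraries without WT replicate 1 or Mut-labelled replicate 2 (edgeR adjusted p = 0.0891 and 0.101) and in total RNA libraries without the latter (0.0856), and S1pr3 in total RNA libraries without any of 3 libraries, WT replicate 2 and either Mut-labelled replicate (0.452, 0.132 and 0.306). Downstream of such receptors, Rgs10, which shortens G protein signals, rose 3.32-fold in mRNA libraries. By total RNA it was not called (log2 fold change 1.47, edgeR adjusted p = 0.0517). The kinase gene Lyn rose 1.79-fold in mRNA libraries. Lyn lost its call there without either WT replicate (0.0802 and 0.101), and in total RNA libraries in each fit with 1 library left out but that without WT replicate 2. Rgs1 (1.10) and Arhgap25 (0.77) rose by total RNA (edgeR adjusted p = 0.005 and 0.0487), without a call in mRNA libraries (adjusted p = 0.0719 and 0.0915). The call of Arhgap25 held without Mut-labelled replicate 1 alone (0.0415 against 0.0605 to 0.332). The most abundant gene of that list, Gnai2, which encodes the G protein subunit that Cxcr4 couples to, gave a log2 fold change of 0.20 (adjusted p = 0.69).

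Of the selectins and their ligands, Selp, which encodes the P-selectin of platelets and endothelium, rose from 51.0 and 51.1 to 114 and 128 CPM in mRNA libraries (log2 fold change 1.24, edgeR adjusted p = 0.0105). Podxl, a sialomucin gene related to Cd34, rose from 15.3 and 16.0 to 143 and 111 CPM, 8.13-fold, while Cd34, the most abundant of the list, gave a log2 fold change of 0.14 (adjusted p = 0.813). Selp and Podxl were called in each mRNA fit with 1 library left out. Cd24a, a P-selectin ligand gene, fell in total RNA libraries (log2 fold change -0.73, adjusted p = 0.0489), with -0.81 in mRNA libraries (adjusted p = 0.0666). The call of Cd24a was lost without WT replicate 1, and likewise without Mut-labelled replicate 2 (0.275 and 0.524).

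Of the other integrin chains, Itga2b and Itgb3, which together encode the platelet fibrinogen receptor, rose 4.11-fold and 2.16-fold. Itgb3 was 65.1 and 68.5 CPM in the WT mRNA libraries, against 165 and 124 CPM under the Mut label, and lost its call without WT replicate 1 (edgeR adjusted p = 0.0584). Itga2b, Itgb3 and Selp belong to the megakaryocyte list given above. Itga9, whose product pairs with that of Itgb1 and binds Vcam1 and other ligands, rose from 18.4 and 18.9 to 82.6 and 110.2 CPM in mRNA libraries, 5.17-fold (edgeR adjusted p = 0.00579), and from 15.6 and 19.1 to 94.8 and 123 CPM in total RNA libraries. Itgb6, an epithelial beta chain, rose from 1.90 and 2.88 to 16.1 and 20.1 CPM. Itga5, the fibronectin receptor chain, and Itgb7, the other beta partner of Itga4, both taken as partners of the 9 genes after their values were seen, had log2 fold changes of -0.00 and -0.13 (adjusted p = 0.996 and 0.82). Alpha chains that pair with Itgb1 thus held genes that rose, Itga6 and Itga9, and genes that were not called, Itga4 and Itga5.

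Other adhesion receptors gave 3 rises and 1 fall among 29 tested in mRNA libraries, against 1.75% and 1.89% of all genes tested. Jam3, a junctional adhesion molecule gene, rose from 9.88 and 7.46 to 135 and 105 CPM, 13.8-fold (edgeR adjusted p = 0.0033), the largest rise in the 8 lists there, and Esam, an endothelial and stem cell adhesion molecule gene, rose 1.82-fold. The tetraspanin gene Cd53 rose 1.83-fold. By total RNA, Esam and Cd53 were not called (log2 fold change 0.962 and 0.997, edgeR adjusted p = 0.071 and 0.0647). In mRNA libraries Alcam, a cell adhesion molecule gene of the immunoglobulin family, fell from 39.4 and 59.5 to 18.4 and 17.2 CPM, 2.78-fold (edgeR adjusted p = 0.0351). Esam lost its call without either WT replicate, Cd53 without WT replicate 1 or Mut-labelled replicate 2, and Alcam without Mut-labelled replicate 2 (adjusted p = 0.0642 to 0.153). Msn, the membrane linker gene that was most abundant there, gave a log2 fold change of 0.36 (adjusted p = 0.323), and its relative Ezr fell in total RNA libraries (-0.75, adjusted p = 0.00943, against -0.18 and 0.605 in mRNA), a call lost without WT replicate 1 or Mut-labelled replicate 2 (0.0735 and 0.0684). In the linkage list, Rap1b, a small GTPase gene of integrin activation, rose in total RNA libraries (0.83, adjusted p = 0.00377, against 0.69 and 0.2 in mRNA).

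Of 23 tested genes of matrix ligands, proteases and their inhibitors edgeR called 0 from mRNA, and 6 had an unadjusted p under 0.05, against 15.7% of all genes. DESeq2 called 4 higher and 1 lower, against 751 and 864 of all 17128 genes. Mmp9, a matrix protease gene of neutrophils, was 1.98 and 3.48 CPM in the WT mRNA libraries, against 26.9 and 10.4 CPM under the Mut label (log2 fold change 2.77, adjusted p = 0.0622), the higher value being in Mut-labelled replicate 1, where the neutrophil sum was also highest. In total RNA libraries Mmp9 had 1 and 0 counts in WT and 20 and 17 in Mut-labelled libraries. It thus passed the filter on low counts through the latter, so that its direction there was largely set beforehand. It was called higher there (edgeR adjusted p = 0.0017), but not without Mut-labelled replicate 1 (log2 fold change 4.56). Col4a1, a basement membrane collagen gene, rose in total RNA libraries (log2 fold change 0.65, adjusted p = 0.0465) and lost that call without any 1 of the 4 libraries. The most abundant of the list, the sheddase gene Adam10, gave a log2 fold change of 0.23 (adjusted p = 0.541).

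For the 3 called genes, genes with the most similar pattern were taken by the distance between log2 levels over the 8 libraries, among 10509 genes tested in both kinds. They were Lyn, Arhgef3 and Vsir for Itga6 (distances 0.17 to 0.20), Chst15 and Epb41l1 for Itgal (0.27 and 0.32), and Ripor3, Bin1 and Gnb4 for Itgb2 (0.34 to 0.42). Since these patterns rest on 4 sorted samples, they are a description only.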

How the data were processed

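RNA of 24000 sorted cells per sample was measured in 8 libraries, 2 per label and kind (mRNA, total RNA). The deposited table holds whole read counts per Ensembl gene, not normalized by the authors. TopHat, featureCounts, edgeR and the mm9 build are named, with no version or role, per the submitters' processing notes. The annotation, strand setting and treatment of multiply mapped reads were not given in the sources used here. The 92 ERCC and 3 ribosomal RNA entries were kept out of library sizes and tests. Symbols were assigned to 32919 of 37991 identifiers. Levels of different genes were not compared, since no gene lengths of the files' annotation were used.

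Each kind was tested on its 4 libraries, with R 4.3.3, by edgeR 4.0.16's quasi-likelihood test (two-sided, TMM, filterByExpr, Benjamini-Hochberg, adjusted p under 0.05), tested on simulated data. The difference between kinds was an interaction over 8 libraries. Alternatives were DESeq2 1.42.0, RLE factors, ERCC scaling, no filter, blocks, a joint fit and leaving out each library. Same-named mRNA and total RNA libraries deviated together (correlation 0.37 in WT, 0.43 in Mut-labelled libraries) and were read as 1 sorted sample. The named genes of the lists are those called in either kind and the most abundant of each list, with up to 3 genes of like pattern per called member; 1 gene that the rule names is not reported here; partner integrins (Itgam, Itgax, Itgad, Itgb4, Itgb7, Itga5) and Cxcl12 were named after their values were seen. The members and lists were chosen with earlier results of these data known.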

Additional observations from a re-analysis of the deposited data

How the results depend on the processing

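The limits are 2 samples a group, 6 to 466 counts per gene for the 9 genes in total RNA libraries, and a Mut label that could not be checked. Runx1 was higher under that label, but reads summed over all its exons do not test whether 1 part was deleted. RLE factors and the fits without a filter kept the 3 called genes in both kinds. In mRNA libraries 624 genes, 3 of the 9 and 19 of the homing and adhesion lists were called. These became 1615, 4 and 46 with DESeq2, and 170 (16 higher, 154 lower), 0 and 0 with ERCC scaling (826, 0 and 6 at an unadjusted p under 0.05). In total RNA libraries 445, 3 and 22 became 199, 3 and 14 with DESeq2, and 373 (13 higher, 360 lower), 1 (Vcam1, lower) and 5 with ERCC scaling. Without the filter 724 genes were called there, and 273 with all 8 libraries in one fit. For the difference between kinds, 0 genes became 12 with DESeq2. The causes were not tested.

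With the replicate number as a block, 2870 genes, 5 of the 9 and 75 of the lists were called in mRNA libraries and 870, 5 and 41 in total RNA libraries, the added members being Itga4 and Cd44. Same-numbered WT and Mut-labelled libraries deviated together (correlation 0.32 and 0.22), but with 2 pairs the samples share only a number. With the sorted sample as a block the difference called 111 genes, 0 of the 9 and 4 of the lists.

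ERCC scaling reversed log2 fold changes in mRNA libraries for Selplg (-0.32), Itga4 (-0.092) and Itgb1 (-0.26), and in total RNA libraries for Cxcr4 (-0.92), Selplg (-0.91), Itga4 (-0.65), Itga6 (-0.069), Itgb1 (-0.91) and Cd44 (-0.72). It reversed the difference between kinds for Cxcr4 (-0.40), Selplg (-0.58), Itga4 (-0.56), Itga6 (-0.56), Itgb1 (-0.65) and Itgal (-0.65).

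With 1 library left out, 602 to 815 genes, 1 to 3 of the 9 and 13 to 26 of the lists were called in mRNA libraries, 386 to 598, 3 to 4 and 17 to 31 in total RNA libraries, and 0 to 1, 0 and 0 for the difference. Signs changed in mRNA libraries for Cxcr4 (-0.20 to 0.094), Selplg (-0.042 to 0.15), Itga4 (-0.055 to 0.51) and Vcam1 (-0.79 to 0.11), and in total RNA libraries for Cxcr4 (-0.041 to 0.40) and Itgb1 (-0.027 to 0.43). They changed in the difference for Itga4 (-0.039 to 0.52), Itga6 (-0.052 to 0.36), Itgb1 (-0.14 to 0.33), Itgal (-0.020 to 0.51), Itgb2 (-0.47 to 0.22) and Cd44 (-0.34 to 0.11).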
